A study of Mus musculus with 2 samples.

Results

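The genes described here are 38 members of 2 linked programmes, the enzymes and transporters of glycolysis and the targets of hypoxia-inducible factor, measured on single-colour Agilent arrays in mouse spleen CD4 T cells. They were chosen by name, as the noncontrol probes whose gene name in the array files is on a list of 17 glycolytic enzymes, 6 transporters and regulators of glycolytic flux and 15 hypoxia targets. The hypoxia targets are counted with Hif1a, a gene of the factor itself. All 38 genes were found, among 12931 named genes that were well above background on both arrays. The cells came from female mice of the OVA-TCR-Tg strain, which carry a transgenic T cell receptor for ovalbumin (OVA). In the naive-only group, spleen cells at 2500000 cells/mL were cultured for 24 h with OVA at 0.1 mg/mL. In the co-culture group, spleen cells first stimulated at 2500000 cells/mL with the bacterial superantigen TSST-1 at 0.1 μg/mL, which the labels call anergic, were mixed with an equal number of naive spleen cells at 0.5 times the naive-only density, and kept with the same dose of OVA for the same time. CD4+ T cells were then sorted from each culture. Whether the sort separated naive from TSST-1 cells, how many mice were pooled and how much of the host receptor repertoire was left are not stated in the labels. With a single array in each group, no difference could be checked on a replicate and the groups could not be tested against each other. Every count is of differences past 2-fold, a rule of size.

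Glycolysis splits glucose to pyruvate in the cytosol, and lactate dehydrogenase then turns pyruvate to lactate, which a transporter carries out of the cell. Several steps have more than 1 enzyme, encoded by separate genes (isozymes). T cells raise glycolysis when they are activated. Hypoxia-inducible factor 1 (HIF-1) is a transcription factor whose alpha subunit, encoded by Hif1a, is marked for destruction by oxygen-dependent prolyl hydroxylases. HIF-1 binds short DNA elements with the core letters ACGTG or GCGTG and induces many glycolytic genes, together with genes of mitophagy, collagen modification, pH control and vessel growth. In activated T cells HIF-1 is also known to act at normal oxygen, so a set of HIF targets is not by itself a measure of oxygen.

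After co-culture, 14 of the 38 members were higher by 2-fold or more (36.8%) and 1, Adm, was lower by as much. Among all 12931 named genes measured, the shares were 8.27% for higher and 5.19% for lower genes. The median log2 difference, co-culture minus naive-only, was 0.57 over the members and -0.04 over all measured genes, whose interquartile range was -0.37 to 0.34. The higher genes were 4 of 17 glycolytic enzymes, 3 of 6 transporters and flux regulators and 7 of 15 hypoxia targets, so the last 2 groups held most of them. The medians of the 3 groups were 0.33, 0.92 and 0.89. Bright probes differed less between the arrays than dim ones, so the members were also set against genes of similar signal. Of the 12 members with a mean level from 0 to under 4, 7 were past 2-fold higher and none lower, where 8.11% and 4.36% of the 6005 genes in that band were. Of the 13 from 4 to under 8, 6 were higher and none lower, against 4.51% and 2.22% of 2658 genes. Of the 3 below 0, Car9 was higher and Adm lower, against 11.6% and 8.91% of 3930 genes. These are descriptions of 2 arrays. In sorted bulk RNA, a change in the share of cells of a kind and a change of RNA per cell cannot be told apart.

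**Figure D1:**
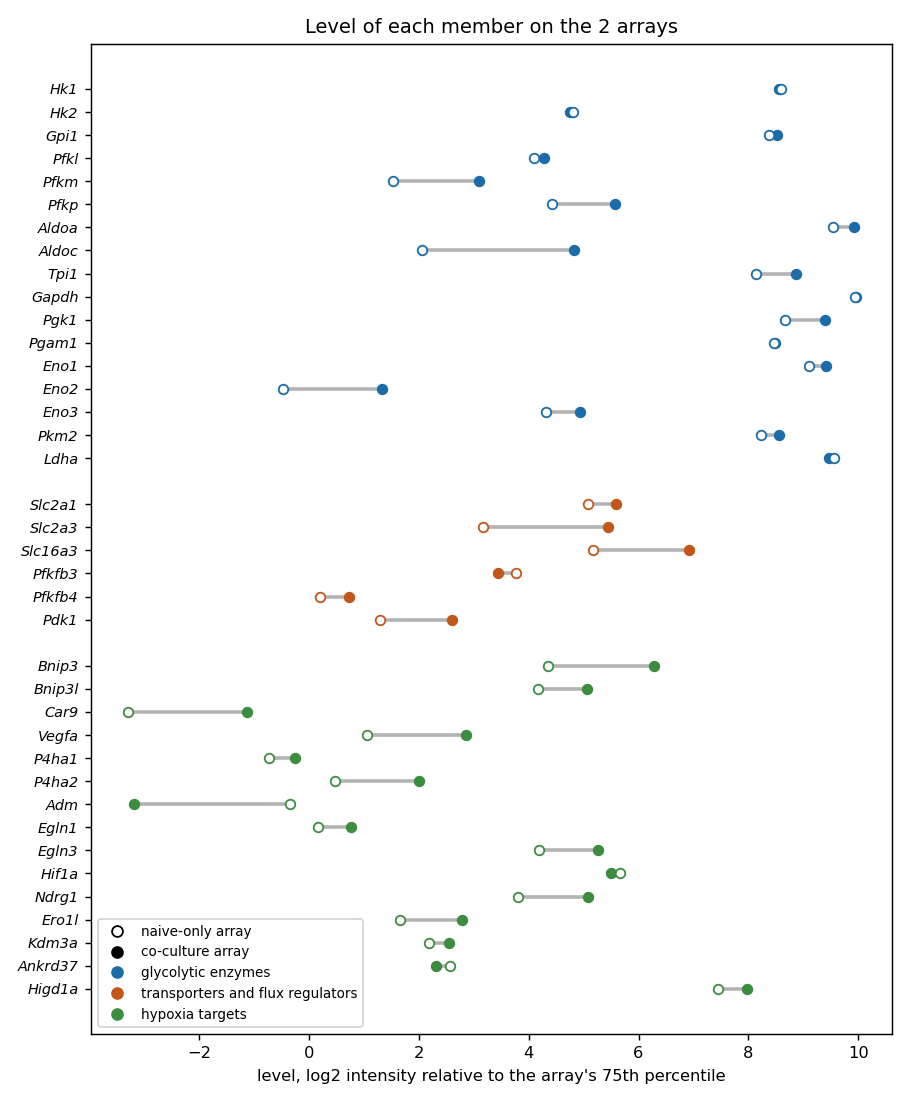
Level of each of the 38 members on the naive-only array (open circle) and the co-culture array (filled circle), as log2 intensity relative to the array's 75th percentile, from the probe that represents the gene; colours mark the 3 groups of members. Levels of different genes come from different probes and are not comparable along the axis, while the length of a line is the difference between the arrays. The longest lines belong to Adm (lower) and Aldoc (higher).

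The level of a gene is log2 of its processed intensity from which the 75th percentile of that array's noncontrol probes was subtracted (299.4 intensity units for naive-only and 301.3 for co-culture), so 0 is that percentile. The scanner software called 25744 and 25136 of 55681 probes well above background, and no spot was saturated. The ± beside a difference is the software's technical error of both arrays, with a median of 0.20 over genes. It holds no variation between cultures. The sort was checked against markers of T cells and of other spleen cells. All 10 CD4 T cell markers were measured, with Cd3e at a level of 6.11 in naive-only and 6.48 in co-culture cells and Cd4 at 5.54 and 5.90. Their log2 summed level was 9.81 and 9.85, and 1 of them, Trat1, was past 2-fold lower (-3.06). Of the CD8 T cell markers, Cd8a was at -2.67 and -2.16 and the brighter Cd8b1 at -0.71 and -1.26, with differences of 0.52 and -0.56. The lowest levels called above background were -4.03 and -3.90. All 8 measured B cell markers were past 2-fold lower after co-culture. Ms4a1 went from 3.52 to -1.51, Blk and Pax5 were above background on the naive-only array alone, and the log2 of the summed B cell marker levels was 5.31 and 3.11. The same held for 6 of 9 measured markers of dendritic cells and class II and for 2 of 6 of macrophages and monocytes. Of all named genes measured, 5.19% were lower by as much. The log2 summed level of the dendritic cell and class II markers was 8.53 and 7.60. The brightest of them, Siglech, was at 7.35 and 7.23 and weighs most in the co-culture sum. Many markers of these other cells moved with the comparison, and their part in the differences of the members was not tested.

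Because HIF-1 has a known DNA element, the upstream sequences of 8 members are shown. The sequences were chosen to hold members higher (Aldoc, Slc16a3, Bnip3, P4ha2, Car9, Eno2) or lower (Adm) after co-culture. They also hold that of Ldha, which was within the technical error by its brightest probe. Each is the 250 bases before a start of the gene on its own strand, the first of 2 starts for Aldoc and Ldha, 5′ to 3′, from RefSeq on GRCm38.p6, and capitals mark the letters ACGTG or GCGTG on either strand, which read CACGT or CACGC where they lie on the other strand. An ACGTG that runs on as CACGTG is matched on both strands at once.
Aldoc, chr11:78322823-78323072, plus strand: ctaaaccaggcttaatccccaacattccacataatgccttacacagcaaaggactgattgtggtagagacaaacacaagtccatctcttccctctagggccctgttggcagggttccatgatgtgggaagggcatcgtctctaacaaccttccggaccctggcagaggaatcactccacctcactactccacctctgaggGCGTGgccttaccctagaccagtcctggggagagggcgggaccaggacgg
Slc16a3, chr11:120948817-120949066, plus strand: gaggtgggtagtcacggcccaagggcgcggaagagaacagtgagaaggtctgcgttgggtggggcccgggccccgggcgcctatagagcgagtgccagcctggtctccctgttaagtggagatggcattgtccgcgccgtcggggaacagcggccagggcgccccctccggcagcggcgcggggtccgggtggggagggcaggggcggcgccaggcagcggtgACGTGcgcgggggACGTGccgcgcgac
Bnip3, chr7:138909507-138909756, minus strand: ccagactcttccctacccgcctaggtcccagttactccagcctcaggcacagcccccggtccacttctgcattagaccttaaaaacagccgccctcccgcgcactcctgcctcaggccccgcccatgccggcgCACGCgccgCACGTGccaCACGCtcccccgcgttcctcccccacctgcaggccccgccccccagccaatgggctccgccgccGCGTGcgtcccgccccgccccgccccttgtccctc
P4ha2, chr11:54100674-54100923, plus strand: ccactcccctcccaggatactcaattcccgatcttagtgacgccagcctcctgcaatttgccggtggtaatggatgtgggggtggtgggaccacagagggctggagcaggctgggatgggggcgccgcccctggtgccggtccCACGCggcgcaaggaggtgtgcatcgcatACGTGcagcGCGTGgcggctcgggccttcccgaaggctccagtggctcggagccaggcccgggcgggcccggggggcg
Car9, chr4:43506776-43507025, plus strand: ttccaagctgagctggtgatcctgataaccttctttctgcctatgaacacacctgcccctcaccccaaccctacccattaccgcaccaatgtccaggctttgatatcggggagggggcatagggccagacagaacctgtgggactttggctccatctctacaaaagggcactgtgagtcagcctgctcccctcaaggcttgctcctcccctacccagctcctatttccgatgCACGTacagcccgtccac
Ldha, chr7:46845554-46845803, plus strand: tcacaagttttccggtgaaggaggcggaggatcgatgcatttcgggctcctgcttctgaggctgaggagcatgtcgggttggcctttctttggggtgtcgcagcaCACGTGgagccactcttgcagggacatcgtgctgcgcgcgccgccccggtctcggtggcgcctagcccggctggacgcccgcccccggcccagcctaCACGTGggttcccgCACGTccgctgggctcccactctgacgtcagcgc
Adm, chr7:110627407-110627656, plus strand: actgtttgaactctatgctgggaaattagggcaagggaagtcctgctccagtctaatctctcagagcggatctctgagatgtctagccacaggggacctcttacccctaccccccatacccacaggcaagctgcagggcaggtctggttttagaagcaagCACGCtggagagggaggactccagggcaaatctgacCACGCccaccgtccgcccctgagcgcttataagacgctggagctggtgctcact
Eno2, chr6:124769674-124769923, minus strand: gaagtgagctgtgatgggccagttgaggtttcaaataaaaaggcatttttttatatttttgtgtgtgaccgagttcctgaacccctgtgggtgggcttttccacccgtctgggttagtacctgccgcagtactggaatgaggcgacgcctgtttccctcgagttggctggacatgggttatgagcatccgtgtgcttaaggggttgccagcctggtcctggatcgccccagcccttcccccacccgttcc

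The table of upstream sequences held 35 of the 38 members; Slc2a3, Bnip3l and Ndrg1 are named only. At least 1 of the 2 motifs was found upstream of 32 of 35 members (91.4%), against 41.5% of all 27025 genes with such a sequence, where a gene with several starts counted if any of its windows held a match. ACGTG alone was found for 20 of 35 (57.1%) against 18.5% of all genes, and GCGTG for 24 (68.6%) against 30.9%. By group, ACGTG was found for 10 of 13 hypoxia targets, 3 of 5 transporters and flux regulators and 7 of 17 glycolytic enzymes. The members' windows were richer in G and C (median 60.4%) than all windows (52.4%), and both motifs contain CG. The members were listed by name as genes of glycolysis and HIF targets, so their excess over all genes is not independent of that choice. Either motif was found for 11 of the 12 higher members with a window and 21 of the other 23. Nearly all members held one, so this count could hardly part higher members from the others. ACGTG was found for 8 (66.7%) and 12 (52.2%), and GCGTG for 8 (66.7%) and 16 (69.6%), and these shares were not tested. The Ldha window shown held 5 matches of ACGTG, counting both strands, and its other window held none and 1 of GCGTG. By its brightest probe Ldha did not differ between the arrays beyond the technical error, and its 3 probes gave -0.09 to 0.24. Bnip3 held 2 of ACGTG and 3 of GCGTG and was higher, Adm held 2 of GCGTG and was lower, and the window of Eno2 held neither. A match of 5 letters is a description of the sequence and does not show that a factor binds there.

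Glucose enters T cells through facilitative transporters. Slc2a3 encodes GLUT3, a high-affinity glucose transporter. Its probe (chromosome 6, 122678075 to 122678134 on mm9, the build of all probe positions here) had a level of 3.17 in naive-only and 5.45 in co-culture cells, 4.86-fold higher (2.28 ± 0.20). Slc2a1, which encodes GLUT1, the transporter best known from activated T cells, was at 5.08 and 5.59 (0.51 ± 0.20). The difference of GLUT3 exceeded that of GLUT1 by 1.77 ± 0.29 on the log2 scale, over 6 times the technical error of that contrast. At the other end of the pathway, Slc16a3 encodes MCT4, the transporter that exports lactate from glycolytic cells. It went from 5.18 to 6.92 (chromosome 11, 120820030 to 120820089), 3.35-fold higher at 1.74 ± 0.20, and its other probe gave 1.69. Of these 3 members, Slc2a3 and Slc16a3 passed 2-fold and Slc2a1 did not. Among transporter genes that are not members, Slc2a8 had a difference of 1.25 ± 0.20 and passed 2-fold. The difference was 0.22 for Slc2a6, with -0.14 from its other probe, and 0.25 ± 0.22 for Slc16a1, which encodes the lactate transporter MCT1.

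Hexokinase, which traps glucose in the cell as its phosphate, is encoded here by Hk1 and Hk2. Hk2, the isozyme known as a HIF-1 target, was at 4.801 and 4.745 (-0.06 ± 0.20). Hk1 depended on the probe. Its brightest probe was at 8.59 and 8.56 (-0.03 ± 0.20), whereas its 2 others gave 0.55 (6.17 to 6.72) and 0.75 (1.85 to 2.59), so the gene has no single value, and the contrast Hk1 minus Hk2 ran from 0.03 to 0.80 over the probes. Gpi1, the glucose-6-phosphate isomerase, had 3 overlapping probes, which gave differences of 0.15 to 0.20. None of the genes of these 2 steps passed 2-fold.

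Phosphofructokinase is the main control point of glycolysis, a tetramer of muscle (Pfkm), liver (Pfkl) and platelet (Pfkp) type subunits. Pfkm was printed in 10 spots, whose SD was 0.05 in naive-only and 0.07 in co-culture cells. It went from 1.53 to 3.09 (chromosome 15, 97962713 to 97962772), 2.96-fold higher at 1.56 ± 0.06, far outside the spread of its spots. Pfkl was at 4.10 and 4.28 (0.19 ± 0.20). The difference of Pfkm exceeded that of Pfkl by 1.38 ± 0.21. Pfkp was 2.22-fold higher by its brighter probe (4.42 to 5.57, 1.15 ± 0.20) but its difference was 0.40 by the other, a dim probe at -2.46 and -2.06. Its call therefore rests on 1 of 2 probes, and with the median of both (0.77) it did not pass 2-fold. Of the isozymes of this step, the liver type had the smallest difference.

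Of the genes for enzymes that make and remove fructose-2,6-bisphosphate, the activator of phosphofructokinase, the 2 members differed less than Pfkm. Pfkfb3 was at 3.77 and 3.44 by its brighter probe (-0.33 ± 0.20), and a dim probe gave a difference of 0.10. Pfkfb4, a HIF target in many cells, was at 0.20 and 0.73 (0.53 ± 0.21), and neither array had its second probe well above background. Pfkfb4 minus Pfkfb3 was 0.86 ± 0.29. Neither of these members passed 2-fold. Pfkfb1, a related gene that is not a member, was at 0.23 and 1.30 (1.07 ± 0.20) and passed it.

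Aldolase splits the sugar into 2 triose phosphates, and its isozymes were the most unequal of the pathway. Aldoc, the aldolase best known from brain, went from 2.05 to 4.83 (chromosome 11, 78140198 to 78140257), 6.83-fold higher at 2.77 ± 0.20. Aldoa, the ubiquitous muscle-type aldolase, was at 9.54 and 9.93 (0.39 ± 0.20). The contrast between them was 2.39 ± 0.29, the largest of the 13 pairs of isozymes or paralogs compared. Each rests on 1 probe. Of 6005 genes in the same band of signal as Aldoc (mean level from 0 to under 4), 50 had a difference as large or larger, Aldoc included.

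Tpi1, Pgk1 and Pgam1 were measured by bright probes, a range in which few genes differed. Tpi1, the triose phosphate isomerase, was at 8.13 and 8.87 (0.74 ± 0.20), with 0.64 from its other probe. Pgk1, the phosphoglycerate kinase that makes the first ATP of the pathway, was at 8.67 and 9.40 (0.73 ± 0.20). Its only probe is placed on chromosome 3 (57906830 to 57906894), whereas the RefSeq promoter of Pgk1 lies on chromosome X, so the array's own position is that of another copy of the sequence and the gene behind this value is uncertain. Pgam1, the phosphoglycerate mutase, was at 8.46 and 8.48 (0.02 ± 0.20). Among the 338 genes with a mean level of 8 or more, the interquartile range of differences was -0.12 to 0.03, and 2.37% were at least 2-fold higher. In that band 13 genes reached the difference of Tpi1 and 14 that of Pgk1, each count with the gene itself. None of the 10 members of the band passed 2-fold, and their median was 0.23.

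Gapdh, the dehydrogenase often used as a reference gene, had 8 probes, all well above background, and gave 8 answers between 0.03 and 0.62. The probe at 7.15 on the naive-only array gave 0.62 and the probe at 7.84 gave 0.59. The 4 probes between 8.62 and 9.498 gave 0.21 to 0.46. The 2 brightest, at 9.91 and 9.93, gave 0.06 and 0.03. The dimmest probes thus gave the largest differences and the brightest the smallest, with no steady order between, and no spot was called saturated. None of them passed 2-fold. Of the 8, 6 lie on chromosome 6 with the gene, 1 is placed on chromosome 7 (59003199 to 59003257) and 1 on chromosome 8 (94212520 to 94212579). The probe on chromosome 7 is the brightest and represents the gene here at 0.03 ± 0.20, and the median over all 8 was 0.43. Whether cross-hybridisation or the top of the signal range bears on this spread was not tested.

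**Figure D2:**
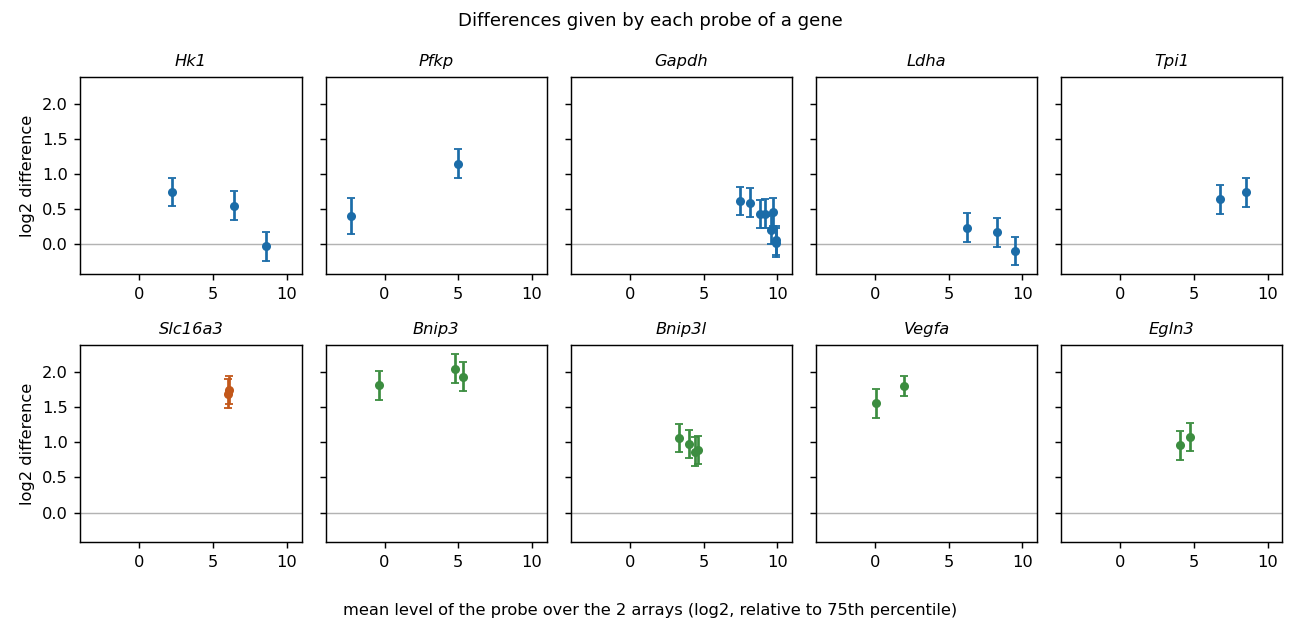
Log2 difference (co-culture minus naive-only) of every measured probe of 10 members with several probes, against the probe's mean level over both arrays; bars are the technical error and colours mark the groups. Probes of Bnip3, Bnip3l, Vegfa, Slc16a3, Egln3 and Tpi1 lie close together, whereas those of Hk1, Pfkp and Gapdh span 0.77, 0.75 and 0.59.

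Enolase was a further step with unequal isozymes. Eno2, the neuron-type enolase and a known HIF target, went from -0.46 to 1.34 (chromosome 6, 124710388 to 124710447), 3.48-fold higher at 1.80 ± 0.21. Eno1, the ubiquitous form, was at 9.10 and 9.41 (0.32 ± 0.20). Eno3, the muscle form, was at 4.32 and 4.93 (0.61 ± 0.20). Eno2 minus Eno1 was 1.48 ± 0.29 and Eno2 minus Eno3 was 1.19 ± 0.29. Eno3 minus Eno1, 0.29 ± 0.29, was within 2 technical errors. At aldolase and enolase the ubiquitous isozyme gene was among those with a mean level of 8 or more, where differences were small throughout, and how far this bounds the contrast was not tested.

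The last enzymes were within 2 technical errors of 0. Pkm2 is the array's name for Pkm, the pyruvate kinase gene, and its probe at 8.24 and 8.56 (0.33 ± 0.20) does not tell the M1 and M2 splice forms apart. Ldha, which encodes the main subunit of lactate dehydrogenase in activated T cells, was at 9.56 and 9.46 by its brightest probe (-0.09 ± 0.20), and its 2 other probes gave 0.17 and 0.24. Pdk1, by contrast, encodes a kinase that inhibits pyruvate dehydrogenase inside the mitochondrion. It went from 1.30 to 2.61 (chromosome 2, 71739688 to 71739747), 2.48-fold higher at 1.31 ± 0.20. So the genes of the lactate exporter and of the kinase that inhibits pyruvate dehydrogenase were higher. The gene of the enzyme that makes lactate did not pass 2-fold by any probe.

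**Figure D3:**
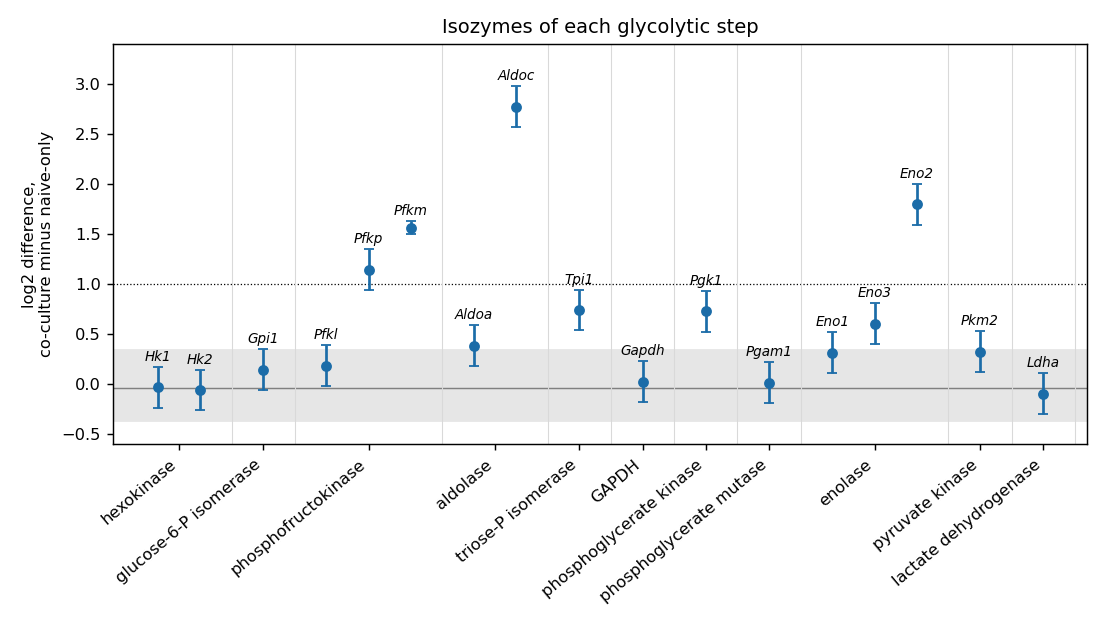
Log2 difference (co-culture minus naive-only) of the 17 glycolytic enzyme genes by step in pathway order, from the probe that represents each gene; bars are the technical error, the grey band is the interquartile range of all measured genes (-0.37 to 0.34), the grey line their median and the dotted line 2-fold. The 4 genes above the dotted line are Pfkp, Pfkm, Aldoc and Eno2, each at a step that also has an isozyme below it.

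In all, 13 pairs were compared by the difference of their log2 differences, and 9 differed by more than 2 technical errors. Besides those above, these were Bnip3 against Bnip3l (1.04 ± 0.29) and P4ha2 against P4ha1 (1.05 ± 0.29). The 4 pairs within 2 technical errors were Hk1 with Hk2, Pfkm with Pfkp (0.42 ± 0.21), Eno3 with Eno1 and Egln3 with Egln1 (0.47 ± 0.29). This does not show that these genes act alike, and it rests on the probe that represents each gene. With other probes, Pfkm minus Pfkp reached 1.16 and Hk1 minus Hk2 reached 0.80. Over all pairs of probes, the contrast of Pfkp with Pfkl ran down to 0.22 and that of Pfkfb4 with Pfkfb3 to 0.43. That of Bnip3 with Bnip3l ran from 0.75 to 1.18 and that of P4ha2 with P4ha1 from 1.05 to 1.44. The other pairs past 2 technical errors had 1 measured probe per gene, so their contrasts could not be checked on another probe.

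The 15 genes listed as hypoxia targets outside glycolysis include Hif1a itself. Of the 15, 7 were past 2-fold higher, 1 was past 2-fold lower and 7 passed in neither direction. Bnip3 and Bnip3l encode mitochondrial receptors for mitophagy, the removal of mitochondria. Bnip3 had 3 probes, at 4.35 to 6.29, 3.73 to 5.77 and -1.25 to 0.56, and was 3.82-fold higher by the brightest (chromosome 7, 146082760 to 146082819, 1.93 ± 0.20). All 3 passed 2-fold, at 1.81 to 2.05. Bnip3l was just short of it, with 4 probes at 0.87 to 1.06 and the brightest at 0.89 ± 0.20.

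Car9 and Vegfa are classical HIF targets, for a carbonic anhydrase that controls pH at the cell surface and for the vascular growth factor VEGF-A. Vegfa was at 1.06 and 2.86 by a probe in 2 spots (chromosome 17, 46154387 to 46154446), 3.49-fold higher at 1.80 ± 0.14, and its other probe gave 1.56. Car9 was dim, at -3.30 on the naive-only array, toward the lowest level called above background, and -1.12 on the co-culture array (chromosome 4, 43526518 to 43526577). The difference was 2.18 ± 0.30, or 4.52-fold, but 2.10-fold with normexp background correction (1.07), so its size depends on how background is treated. Ndrg1, a stress-response gene named for its regulation by N-myc, was at 3.805 and 5.084 (1.28 ± 0.20), 2.43-fold higher.

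Genes of protein folding and collagen modification followed in part. P4ha1 and P4ha2 encode alpha subunits of the prolyl hydroxylase of collagen. P4ha2 was at 0.473 and 1.997 (1.52 ± 0.20), 2.88-fold higher, and P4ha1 at -0.72 and -0.25 (0.47 ± 0.21), with 0.09 from a dimmer probe. Ero1l (Ero1a in RefSeq), the oxidase that forms disulfide bonds in the endoplasmic reticulum, was at 1.65 and 2.79 (1.13 ± 0.20), 2.19-fold higher. Higd1a, a mitochondrial protein induced by hypoxia, was at 7.45 and 7.98 (0.52 ± 0.20), with 0.51 from its other probe. The histone demethylase gene Kdm3a was at 2.18 and 2.55 (0.36 ± 0.20) and Ankrd37, a HIF target of little known function, at 2.57 and 2.32 (-0.25 ± 0.20). Of these 6 genes 2 passed 2-fold.

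Hif1a itself was at 5.67 and 5.50 (chromosome 12, 75047269 to 75047329, -0.17 ± 0.20), with -0.14 from a second probe, so its mRNA did not differ beyond the technical error. Egln3 and Egln1 encode the HIF prolyl hydroxylases PHD3 and PHD2, which are themselves HIF targets. Egln3 was at 4.18 and 5.25 (1.07 ± 0.20), 2.11-fold higher and just inside the threshold, with 0.95 from its other probe. Egln1 was at 0.18 and 0.78 (0.60 ± 0.21). Egln2, the gene of the third such hydroxylase, is not a member and had a difference of -0.20. HIF-1 alpha is controlled mostly as a protein, which these arrays do not measure.

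Adm, which encodes the vasodilator peptide adrenomedullin and is a HIF target in many cells, was the member that went the other way. Its probe (chromosome 7, 117773088 to 117773147) was at -0.33 in naive-only and -3.19 in co-culture cells, 7.22-fold lower, at -2.85 ± 0.28. In its band of signal, 28 of 3930 genes were as low or lower, Adm included. With normexp the difference was -1.69. It was the largest difference in size among the 38 without that correction, and with it Aldoc (2.73) was larger. Macrophages and dendritic cells also express Adm. Of their measured markers, 2 of 6 and 6 of 9 were past 2-fold lower, against 5.19% of all named genes measured. The differences ran from -1.71 (Cd14) to -0.06 (Csf1r) for macrophage markers and from -4.56 (Fscn1) to -0.12 (Siglech) for dendritic cell markers. The part of these cells in the difference of Adm was not tested.

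Related genes that are not members were taken from further lists of the pathways. For scale, 8.27% of all named genes measured were past 2-fold higher and 5.19% lower. Of 19 other glycolysis and lactate genes measured, 4 were past 2-fold higher and none lower, with a median difference of 0.22. With their differences, these included the glucose transporter gene Slc2a8 (1.25), Pfkfb1 (1.07) and the phosphoglucomutase gene Pgm2 (1.0007, at the threshold). Slc16a7 was above background on the naive-only array alone. Of 37 other hypoxia targets measured, 8 were past 2-fold higher, and 2, near the share of all genes, were past 2-fold lower. The median difference was 0.33. The largest differences were those of Selenbp1 (3.59), the stanniocalcin gene Stc2 (2.98), the mTOR inhibitor gene Ddit4 (2.12) and Nfil3 (1.86), and the lower ones included Rora (-1.58). Several of these are also targets of other stress pathways.

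Of 12 genes of pyruvate entry into mitochondria and its use there, 3 had a difference above 0 and the median was -0.22. The mitochondrial pyruvate carrier genes, Brp44 and Brp44l on this array, had differences of -0.41 ± 0.06 and -0.44 ± 0.20, and those of Pdk2, Pdk3 and the pyruvate dehydrogenase subunit gene Pdhb were -0.63, -0.07 and -0.29. Pcx, which encodes pyruvate carboxylase, was the exception with a difference of 1.52 ± 0.20, or 2.86-fold higher. None of 10 pentose phosphate genes passed 2-fold, with a median of -0.02. Of gluconeogenesis, 2 genes were measured, G6pc3 with a difference of 0.51 and Pck2, the mitochondrial phosphoenolpyruvate carboxykinase gene, with 3.08 ± 0.11 (-3.73 to -0.65), 8.45-fold higher. The naive-only level of Pck2 was near the background limit.

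None of 15 measured genes of the HIF pathway machinery passed 2-fold by the probe that represents it, and the median was -0.16. The difference was 0.14 for Vhl, the ligase subunit that binds hydroxylated HIF alpha, 0.41 for the HIF partner gene Arnt, and for the asparagine hydroxylase gene Hif1an -0.80 ± 0.21. Epas1, which encodes HIF-2 alpha, depended on the probe. Its brightest had levels of 3.81 and 3.79 (-0.02 ± 0.20), whereas its 2 others were at -0.37 and 1.85 (2.22 ± 0.21) and at -2.08 and -0.16 (1.92 ± 0.22). These probes were singled out after their values were seen, and which of them follows the Epas1 transcript of these cells was not tested.

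**Figure D4:**
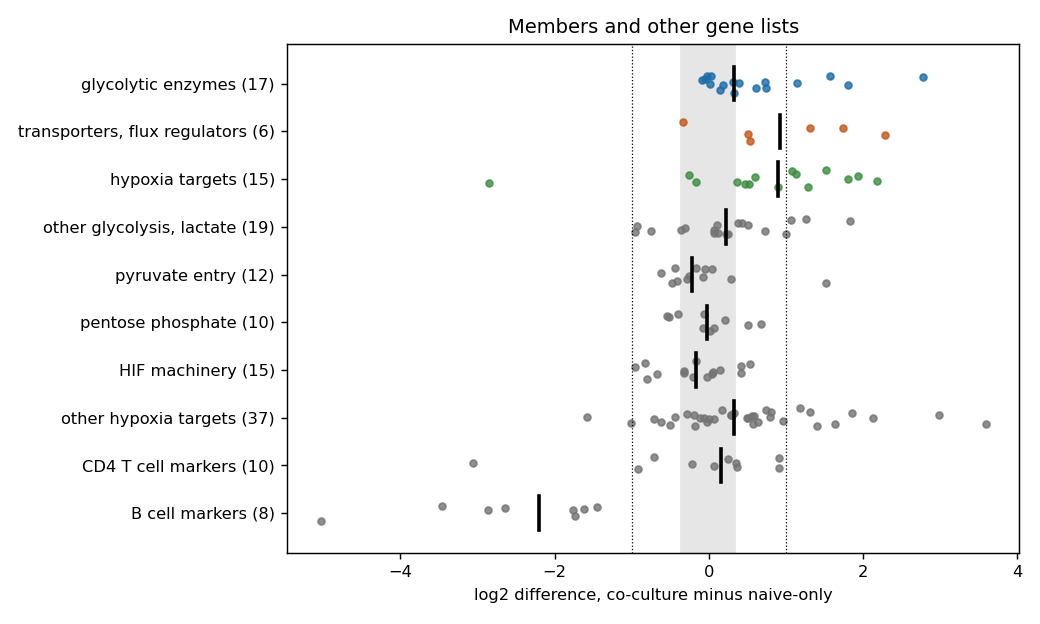
Log2 difference (co-culture minus naive-only) of every measured gene in the 3 groups of members (coloured) and in 7 other gene lists (grey), with the number measured in brackets; black bars are medians, dotted lines 2-fold in either direction, and the grey band the interquartile range of all measured genes. Points are spread vertically for legibility. The medians of transporters and flux regulators (0.92) and hypoxia targets (0.89) lie near the 2-fold line, those of pyruvate entry and HIF machinery (-0.22 and -0.16) inside the band, and that of B cell markers at -2.20.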

How the data were processed

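Total RNA of sorted CD4 T cells was, per the labels' protocols, amplified with the Ovation system and labelled with Cy3. Amplification can alter relative levels, which single arrays cannot show. Spot intensity was extracted by the authors with Agilent Feature Extraction, version 10.7.1.1 per the file headers and 9.5.1.1 per the submitters' processing notes. The processed intensity is background-subtracted. The deposited value table is an intensity on a linear scale, with the same median (14.5) in both columns and the same ranks as each array (Spearman 1.00), which the authors normalized by steps not given in the sources used here.

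Log2 processed intensity was averaged over a probe's spots (10 for Pfkm) and the array's 75th percentile subtracted. A gene was its probe with the highest mean level, measured where well above background on both arrays. This choice favours bright probes. Named probes were those whose gene name differs from the systematic name (33184 of 55681). All 38 members matched a RefSeq gene by accession. All members were named, and up to 4 genes past 2-fold per direction of each other list. Some genes of those lists are not reported here. The members, lists and bands of signal were chosen with earlier results of these data known. The 13 gene pairs and the shown promoters were added after the data were seen. Groups came from the sample titles. Alternatives were normexp (offset 50), quantile or median scaling, the deposited table, other filters, the median over a gene's probes, removal of the 188 and 170 flagged spots, and 1.5-fold. The scaling was tested on simulated data. Python 3.11.15, numpy 2.4.6, pandas 2.3.3, matplotlib 3.10.9, R 4.3.3 and limma 3.58.1 were used.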

Additional observations from a re-analysis of the deposited data

How the results depend on the processing

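With 1 array per group, the alternatives test the processing and not the biology. Of the 15 members past 2-fold, 14 passed it in the same direction under each of the 8 alternatives that measured them. The exception was Pfkp, at 0.77 with the median of its probes. Filters on dim probes leave a member's value as it is, median scaling and flag removal shift all members alike, and the deposited table repeats quantile scaling, so few of these alternatives could move a single gene. The 9 values that moved by more than the technical error came from normexp and the median of probes. Normexp took Adm to -1.69, Car9 to 1.07, Eno2 to 1.58 and Pfkm to 1.47, and the median of probes took Hk1 to 0.55, Gapdh to 0.43, Ldha to 0.17 and Pfkfb3 to -0.12. The signs of 34 members held throughout, and the other 4 were Hk1, Hk2, Pgam1 and Ldha, reported at -0.09 to 0.02. The count of hypoxia targets at least 2-fold lower was 0 with only brighter probes, since that filter drops Adm. At 1.5-fold, 7 glycolytic enzymes were higher, against 15.8% of all measured genes. No scaling moved the median of all genes by 0.1. Without a filter on dim probes it was 0.11 over 24105 genes. The limits are the single array per group, the small differences among bright probes and background near the dim ones. No paired analysis was possible because each group has 1 array.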
